A study of Mus musculus with 9 samples.

Results

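Grip1 and Grip2 encode glutamate receptor interacting proteins, scaffolds built of many PDZ domains. The pair was chosen by the number of SAFB1 peaks in Grip1, which no other annotated gene exceeded, and Grip2 is the related gene beside it. Members of the set are the peaks of the authors' list whose midpoint lies in either gene body on the strand of the gene. They number 167 of 30998 peaks, with 167 in Grip1 and 0 in Grip2. The annotation holds 55450 genes, and 7093 of them, Grip1 included, had a sense peak. The count in Grip1 is therefore a description and supports nothing by itself. Where in the gene the peaks lay, how wide they were and what lay on the other strand were not used in the choice. Density and spacing follow in part from the count.

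The study recovered RNA bound by SAFB1, a nuclear RNA-binding protein, by immunoprecipitation from sonicated mouse embryonic stem cells and sequenced it. All cells came from a male CAST/B6 line with a Rosa26-RMCE site and had been kept in doxycycline for 3 days. The 9 libraries were made with SAFB1 antibody from wild-type cells (3 libraries, the parent line and clones 20 and 44), IgG from wild-type cells (2, the parent line and clone 20), SAFB1 antibody from safb1/2 double-knockout cells (2, clones 4 and 13), and FLAG antibody from clone 13 with an egfp plasmid (1) or with a plasmid for full-length SAFB1 (1, whose genotype tag reads WT although its title names the knockout clone). The data are 1 list of peaks with positions and strand, without a value for any library, and peak names begin with a wild-type SAFB1 label. Differences between antibodies or genotypes could not be measured, the depth behind a peak is unknown, and no value below has replicates. A peak list gives no RNA levels, so the labelled cell type could not be checked by level. Nor can the number of cells with Grip1 RNA be told apart from the amount of that RNA per cell. Sense peaks were present in 4 of 10 genes that mark pluripotent cells (Esrrb 2, and Tet1, Tfcp2l1 and Zfp42 1 each), in 6 of 10 neuronal markers (led by Stmn2 with 4), in 5 of 8 markers of primitive endoderm and in 0 of 7 fibroblast markers, against 26.2% of all protein-coding genes. These lists differ in gene length, with medians of 6.85, 73.2, 59.3 and 29.9 kb in that order, so their counts do not rank the cell types. The only sense peak of Tubb3, 1 of the neuronal markers counted, also lay in another gene.

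GRIP1 binds the tails of AMPA-type glutamate receptors through its PDZ domains and links them to motor proteins and to other synaptic proteins. Outside neurons it holds FRAS1 and FREM proteins at the base of epithelia, and its loss causes a Fraser syndrome phenotype of blistering and kidney defects. A very long gene such as Grip1 yields a precursor RNA that is almost all intron. SAFB proteins stay in the nucleus, where such unspliced RNA is found.

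Grip1 (ENSMUSG00000034813.17) lies at chr10:119453830-120087261 on the plus strand of mm10 and spans 633.4 kb. It has 16 annotated transcripts in GENCODE M21. Grip2 (ENSMUSG00000030098.15) lies at chr6:91761509-91827250 on the minus strand, spans 65.7 kb and has 6 transcripts. The protein-coding Grip1 transcripts begin in 3 places. The first is the start of the gene, used by Grip1-201, Grip1-202 and Grip1-212, the last of which has a start supported by CAGE (sequencing of RNA 5' ends). A group of 7 transcripts (6 coding) begins 365.6 kb downstream, and a group of 4 (3 coding), among them the CAGE-supported Grip1-204, begins 538.9 kb downstream. In the group at 538.9 kb the first start is that of Grip1-207, which lacks CAGE support, and Grip1-204 starts at 539.1 kb. Grip1-209 and Grip1-206, neither annotated as coding, begin at 396.9 and 456.1 kb.

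The bases just before each place of transcription start are shown because the run of peaks is set against these starts below. They are the 46 bases that precede the first annotated start of each coding group in Grip1 and of the coding transcript Grip2-205, from RefSeq windows of GRCm38.p6, with CG dinucleotides in capitals, 5' to 3' on the strand of the gene.
Grip1 gene start, chr10:119453784-119453829, plus strand: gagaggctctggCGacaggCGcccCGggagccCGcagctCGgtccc
Grip1 start at 365.6 kb, chr10:119819343-119819388, plus strand: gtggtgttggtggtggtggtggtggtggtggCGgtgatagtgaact
Grip1 start at 538.9 kb, chr10:119992674-119992719, plus strand: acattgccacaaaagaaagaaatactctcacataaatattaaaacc
Grip2 coding start, chr6:91807457-91807502, minus strand: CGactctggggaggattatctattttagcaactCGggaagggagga

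The gene start of Grip1 is the CG-rich one. Its RefSeq window of 300 bases holds 38 CG dinucleotides, a number reached by 4.95% of the 32851 RefSeq windows, whose median is 7. The window of the start at 365.6 kb holds 7 and that of the start at 538.9 kb holds 1, which 52.1% and 94.6% of windows reach. The Grip2 window holds 16, reached by 33.0%. None of these 4 windows holds the purine hexamer GAAGAA on the strand of the gene, which 12.6% of all windows do.

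Peaks in Grip1 began soon after the gene start and ended just before the gene end. The first peak (chr10:119469897-119470043, 147 bases) started 16.1 kb downstream of the gene start, in intron 1. The last (chr10:120079325-120079519, 195 bases) ended 7.74 kb before the end of the gene. No plus-strand peak lay within 500 kb upstream of Grip1, and the nearest one ended 2292 kb before the gene start. Downstream, the next plus-strand peak came 89.3 kb after the last Grip1 peak, in Gm47009. The stretch with peaks was 609.6 kb long.

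**Figure D1:**
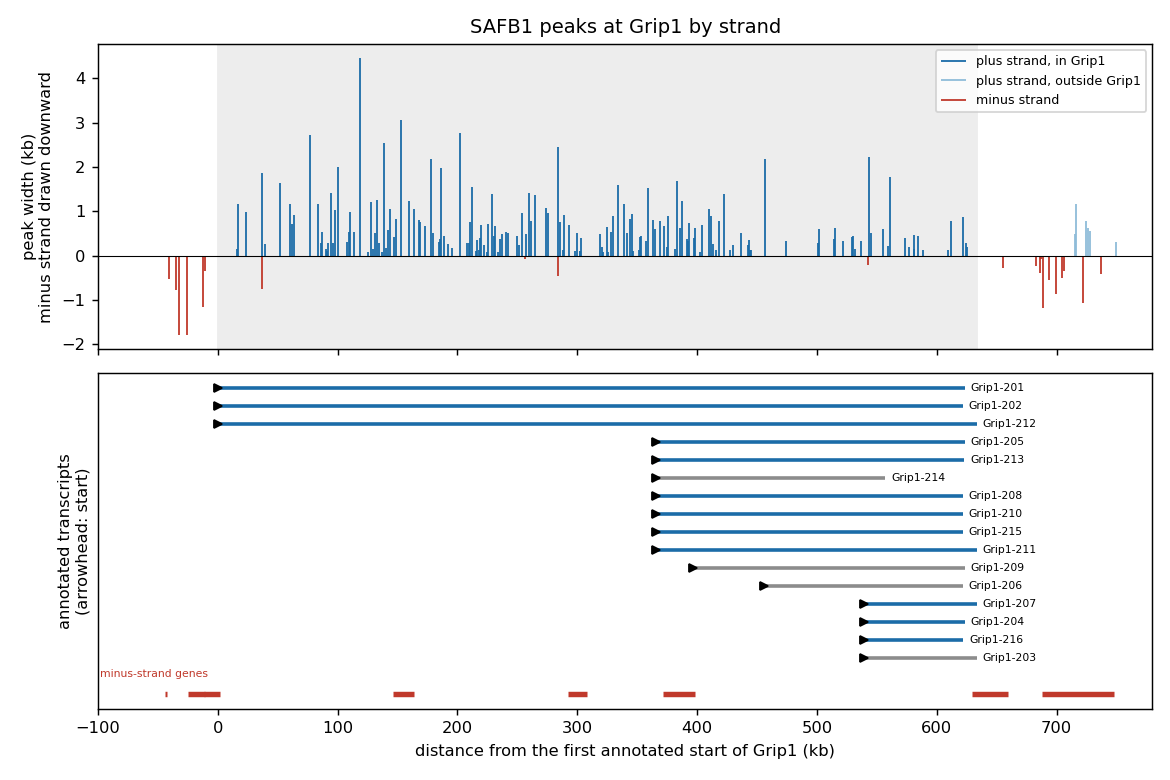
Peaks around Grip1 (upper panel; each line is 1 peak at its midpoint, its height the width in kb, minus strand drawn downward, gene body shaded) and annotated Grip1 transcripts (lower panel; blue protein-coding, grey other, red bars minus-strand genes) against distance from the gene start in kb. The 167 sense peaks begin 16.1 kb after the gene start, with no plus-strand peak upstream in the window, and thin out after 443 kb.

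On the plus strand no peak lay just before the gene start, whereas peaks lay on both sides of each internal start. In the 50 kb before the gene start there were 0 plus-strand peaks and in the 50 kb after it 5. At the start at 365.6 kb, the 50 kb before held 20 peaks and the 50 kb after the last start of that group 18. At the start at 538.9 kb the counts were 9 and 11. A peak of 605 bases ended 0.145 kb before the start at 365.6 kb, and the next began 3.32 kb after it. In the first 365.6 kb, where the only annotated Grip1 transcripts are the 3 that begin at the gene start, lay 112 of the 167 peaks (67.1%) on 57.7% of the length, or 30.6 per 100 kb. From there to 538.9 kb there were 39 peaks (22.5 per 100 kb), and from there to the gene end 16 (16.9 per 100 kb). The stretch that begins at 365.6 kb includes the rest of intron 1, which ends at 443.9 kb. With the gene cut into 10 equal parts, density was 37.9 per 100 kb from 316.7 to 380.1 kb. It was 34.7 from 380.1 to 443.4 kb and 9.47 from 443.4 to 506.7 kb. The fall therefore lay near the end of intron 1 and not at the start at 365.6 kb. The start of Grip1-206 lay inside a peak of 2187 bases (chr10:119909448-119911634).

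At the other end, 2 peaks lay beyond the 623.3 kb at which Grip1-201 and Grip1-205 end, with midpoints at 624.2 and 625.6 kb. Only the 4 transcripts that run to the last exon, Grip1-212, Grip1-211, Grip1-207 and Grip1-203, cover these positions.

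Names of the peaks allow a further measure. Each name carries a number that rises along the chromosome and strand, and numbers are missing where, if each stands for 1 call, a call was not kept by the authors. Between the first and last Grip1 peak the numbers span 300 calls, of which 167 (55.7%, 95% Wilson interval 50.0 to 61.2, counting error only) were kept. That is 4.92 calls per 10 kb. In the 2308 kb from the nearest plus-strand peak upstream to the first Grip1 peak there were 69 calls, or 0.299 per 10 kb. In the 89.3 kb from the last Grip1 peak to the next plus-strand peak there were 12, or 1.34 per 10 kb. These 2 stretches include the ends of the gene outside its first and last peak. Both outer stretches were bounded so that they hold no kept peak, so all their calls were calls not kept. Between the first and last Grip1 peak the calls not kept came to 2.18 per 10 kb (133 calls). That stretch was not bounded in this way, so the rates are set side by side only. The longest series of consecutive kept calls in Grip1 was 10, and 97 of the 166 neighbouring pairs had no missing number between them.

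Intron 1 of the coding transcript with the longest span, Grip1-212 (25 exons, 24 introns), held most of the peaks. It is 443.3 kb long and had 138 peaks, 82.6% of the 167 (95% Wilson interval 76.2 to 87.6, which treats peaks as independent), on 69.98% of the gene's length. Its density was 31.1 peaks per 100 kb, against 14.5 per 100 kb (27 peaks in 186.0 kb) in introns 2 to 24 together. Among these, the 11 introns of at least 5 kb make up 161.95 kb and held 26 peaks, or 16.1 per 100 kb, with a peak in 10 of them. The 12 shorter introns make up 24.04 kb and held 1 peak, or 4.16 per 100 kb. The number of introns with a peak therefore cannot be told apart from their length.

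Intron 7 (30.7 kb) held 5 peaks, intron 16 (15.2 kb) 4, and introns 2 (32.1 kb), 11 (13.3 kb) and 24 (11.5 kb) 3 each. Introns 9, 14 and 22 held 2 each and introns 13 and 19 held 1 each. The long intron without a peak was intron 4 (6.85 kb), and introns 3, 5 and 6 around it were empty as well. The short intron with a peak was intron 18, of 168 bases, where the peak (chr10:120038352-120038800) also covered all of exon 19 and part of exon 18. Intron 2 was sparse for its length, at 9.34 peaks per 100 kb, while intron 9, at 29.1, and intron 16, at 26.2, came near intron 1. With 1 to 5 peaks in each intron, the order of these densities is not resolved.

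**Figure D2:**
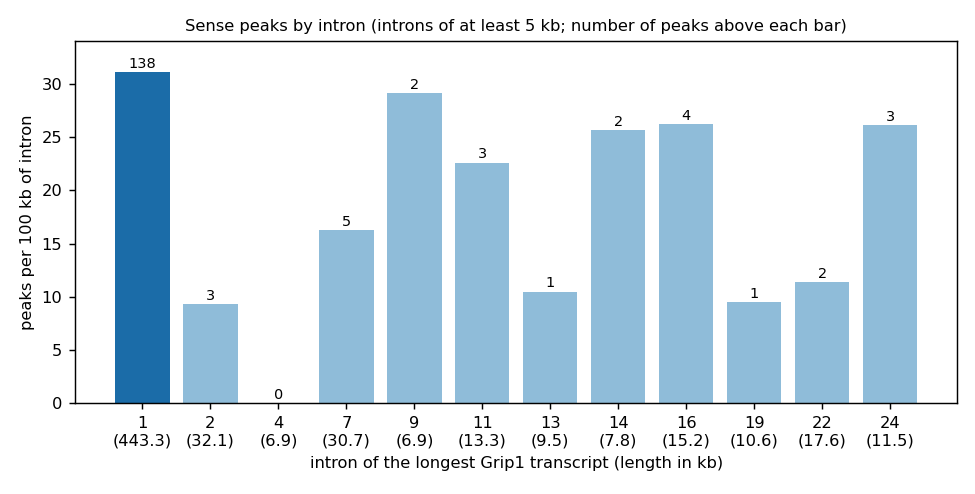
Sense peaks per 100 kb (vertical axis) in each intron of at least 5 kb of Grip1-212 (horizontal axis, intron number with length in kb below), with the number of peaks above each bar. Intron 1 reaches 31.1 per 100 kb on 138 peaks, and every other bar rests on 5 peaks or fewer.

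Within intron 1 the density rose over the first 90 kb and then stayed high. Cut into 10 equal parts of 44.3 kb, the intron held 5, 8, 17, 14, 19, 17, 12, 16, 17 and 13 peaks in order from the gene start. The part nearest the gene start thus had 11.3 peaks per 100 kb and the part with most peaks, from 177.9 to 222.2 kb, had 42.9. The share of calls kept was lowest next to the gene start, at 33.3% (5 of 15 calls, Wilson interval 15.2 to 58.3), and ranged from 59.1 to 80% in the other parts. In each part, calls were counted from its first to its last kept peak. Calls not kept near the borders of a part were left out, which can raise its share. These intervals overlap in part, since at most 25 calls were counted in each part. The parts on both sides of 355.2 kb, near the start at 365.6 kb, held 16 and 17 peaks.

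**Figure D3:**
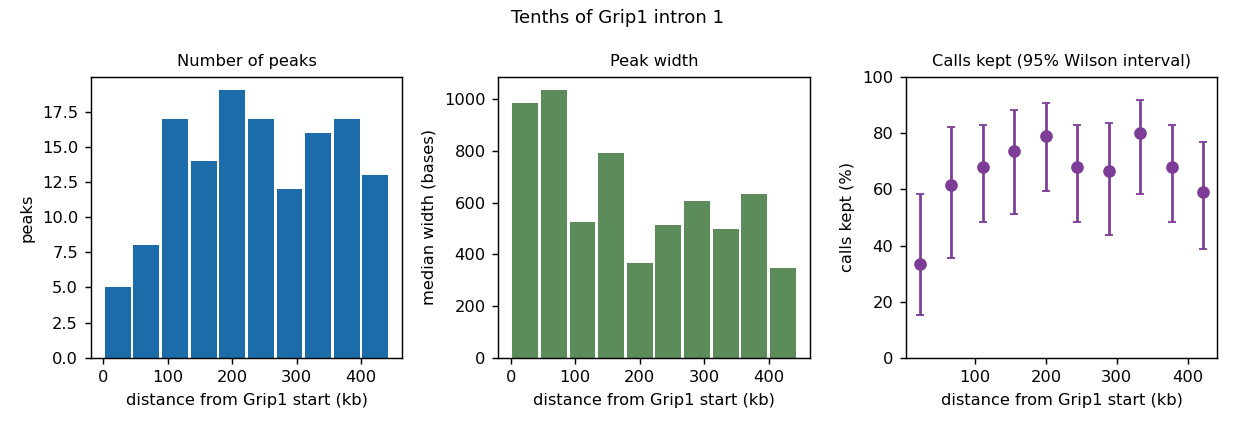
Number of peaks, median peak width in bases, and percent of calls kept with 95% Wilson intervals (vertical axes) in 10 equal parts of Grip1 intron 1, against distance from the gene start in kb. The part nearest the gene start has 5 peaks and 33.3% of calls kept, and later parts have 8 to 19 peaks. Calls of a part are those from its first to its last kept peak.

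Peaks of Grip1 were of moderate width, with a few very wide ones in the first 300 kb. The narrowest had 74 bases, the median 510 (quartiles 273 and 915) and the widest 4465, and together they covered 119.1 kb, 18.8% of the gene. The 16905 intronic sense peaks of the whole list had a median of 631 bases. In intron 1 the median was 536.5 bases and in introns 2 to 24 it was 399. Of the 10 peaks of at least 2 kb, 8 lay in intron 1, between 75.6 and 284.8 kb, and the others were in introns 2 and 11.

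The widest peak was chr10:119570723-119575187, in intron 1 at 116.9 kb from the gene start. It was followed by chr10:119604881-119607935 (3055 bases), chr10:119654605-119657383 (2779 bases), chr10:119529380-119532095 (2716 bases) and chr10:119591120-119593653 (2534 bases), all in intron 1. The peak of 2779 bases had its midpoint in an exon of Gm47026, 1 of 4 plus-strand genes annotated inside Grip1 that await experimental support, so its RNA cannot be assigned to either gene by position. Along the gene, width and position had a Spearman correlation of -0.20 over the 167 peaks. These share 1 list, and the value is a description.

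Spacing was tight and uneven. The 166 gaps between neighbouring peaks ranged from 306 to 26287 bases, with a median of 1705.5 (quartiles 768.75 and 3454.25), and 56 of them (33.7%) were under 1 kb. The narrowest gap separated the peaks chr10:119638788-119639154 and chr10:119639461-119641446. The widest lay between chr10:119927742-119928082 in intron 2 and chr10:119954370-119954649 in intron 7, and it spans exons 3 to 7 and the empty introns between them, with 10 calls that were not kept. The median gap was 1579 bases between peaks of intron 1 and 3546 after it. Of the 10 gaps over 10 kb, 6 began after intron 1, 3 in the first 70 kb of the gene and 1 at 303.4 kb.

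**Figure D4:**
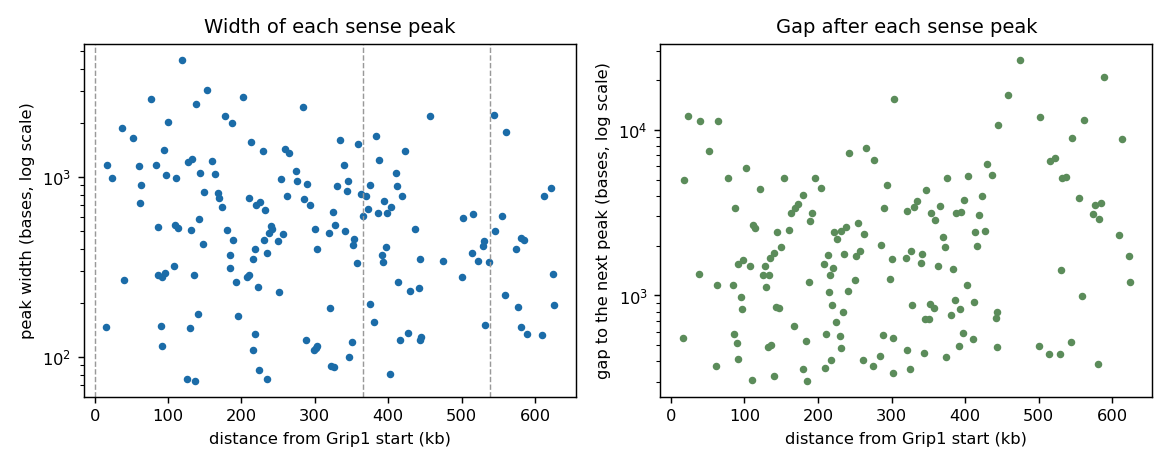
Width of each sense peak (left, bases, log scale) and gap to the next peak (right, bases, log scale) against distance from the Grip1 start in kb, 1 point per peak; dashed lines in the left panel mark the 3 places where coding transcripts begin. Of the 10 peaks over 2 kb, 8 lie between 75.6 and 284.8 kb, and 6 of the 10 gaps over 10 kb begin after intron 1.

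Exons of all Grip1 transcripts together make up 1.27% of the gene's length (8.06 kb) and held 3 of the 167 peaks by midpoint (1.80%). At 3 peaks, no difference from the share of length can be read. Any overlap with an exon was found for 7 peaks. Of these 3, 2 were centred in an exon of Grip1-212. The peak at exon 2 (chr10:119897671-119897795, 125 bases) covered the whole exon of 81 bases, began 44 bases before it and ended at its last base. The peak at exon 10 (chr10:119985476-119985626, 151 bases) began 2 bases inside the exon of 156 bases and ended 3 bases before its end. The remaining one (chr10:120075233-120076100, 868 bases) covered exon 24 and ran 624 bases past it, where other transcripts have a longer exon.

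These 2 exons are printed because a peak was centred in each, ending at the last base of exon 2 and lying within exon 10, with the bases under the peak in capitals, from the GENCODE M21 transcript Grip1-212.
Grip1 exon 2, chr10:119897715-119897795, plus strand: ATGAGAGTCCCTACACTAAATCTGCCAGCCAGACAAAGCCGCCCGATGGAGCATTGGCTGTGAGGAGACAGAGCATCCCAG
Grip1 exon 10, chr10:119985474-119985629, plus strand: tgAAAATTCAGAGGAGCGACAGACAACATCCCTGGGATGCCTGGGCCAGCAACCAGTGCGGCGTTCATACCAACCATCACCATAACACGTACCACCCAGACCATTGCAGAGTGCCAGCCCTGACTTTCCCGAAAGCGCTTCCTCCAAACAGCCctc

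Both exons are coding and keep the reading frame (27 and 52 codons). With these borders, exon 2 is in 8 of the 16 transcripts and exon 10 in 4. Other peaks that overlapped exons had 1 edge far from the border. The peak in intron 16 ended 16 bases before the end of exon 17 but began 328 bases before that exon. The peak over intron 18 ended 7 bases after the end of exon 19 and began 61 bases inside exon 18. The peak at exon 8 began 237 bases before the exon and ended 45 bases before its end. How often edges fall this close to a border by position alone was not tested.

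The purine content of Grip1 exons with and without a peak overlapped in range. The 7 fully coding exons of Grip1-212 that a peak touched had a median of 51.3% A and G (48.7 to 59.3), and the 16 that none touched had 55.7% (47.1 to 63.2). The hexamer GAAGAA, searched on the transcribed strand, occurred in 0 of the 7 and in 1 of the 16. Exon 2 had 56.8% and exon 10 had 48.7%. Sequence of the intronic peaks, the great majority, was not analysed here.

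Minus-strand peaks within Grip1 were few. There were 4, so that the sense strand held 97.7% of peaks in the gene body (Wilson interval 94.1 to 99.1, which treats peaks as independent). The sense count in this share was used in the choice of Grip1. Of the 5 minus-strand genes that overlap Grip1, only Grip1os3 and Helb had a peak on their own strand, and none of these lay inside Grip1. Grip1os1, Grip1os2 and Gm47027 had 0.

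Of the 4 minus-strand peaks, 3 lay wholly inside a wide Grip1 peak of the other strand. They were chr10:119490478-119491230 within a peak of 1862 bases, chr10:119737717-119738169 within 1 of 2448 bases and chr10:119996570-119996776 within 1 of 2218 bases. The fourth (chr10:119710611-119710685, 75 bases) overlapped none. In the whole list 15.5% of the 4039 peaks that were antisense to a gene and in no sense gene lay wholly inside a peak of the other strand. Such overlap was thus seen elsewhere in the list, and its source was not tested.

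Upstream of the gene start, peaks were on the minus strand only. Within 500 kb there were 9, of which 6 had midpoints at -10.3 to -40.2 kb from the gene start. The nearest 2, of 347 and 1159 bases, were in Grip1os3 (the first also in Gm16321), a non-coding gene that begins inside Grip1 and runs away from it. The other 4 (521 to 1797 bases) had midpoints beyond its annotated end, and the 3 farthest peaks were in Cand1, a regulator of cullin ubiquitin ligases. Downstream, 6 plus-strand and 19 minus-strand peaks lay within 500 kb. The minus-strand ones included 7 in Irak3, a kinase-like brake on Toll-like receptor signalling, 6 in Hmga2, an architectural chromatin protein of embryonic cells, and 1 in the helicase gene Helb. Plus-strand peaks included 1 each in Gm47009 and Tmbim4. Of the 32 annotated genes that overlap Grip1 or lie within 500 kb of it, 9 had a sense peak. Of all 55450 annotated genes, 7093 had one. The 9 are not separate from Grip1 or from each other. The peak of Gm47026 is 1 of the 167 Grip1 peaks, and that of Gm16321 is also counted for Grip1os3.

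Grip2 had 0 sense peaks. Of the 1822 protein-coding genes of 50 to 80 kb, 47.3% had at least 1, so a gene of its length without a peak is common. The nearest sense peak (chr6:91833375-91833776, 402 bases) lay 6.13 kb upstream of the gene, and the next on the other side was 262.6 kb from the gene end. Between these the names leave room for 23 calls that were not kept, 0.688 per 10 kb. The calls not kept between the first and last Grip1 peak came to 2.18 per 10 kb. The stretch around Grip2 was bounded so that it holds no kept peak, and the stretch in Grip1 was not, so the rates are set side by side only. The single peak in the Grip2 body was antisense (chr6:91763993-91764678, 686 bases). It lay 2.48 kb from the Grip2 end and 4.93 kb past the annotated end of Slc6a6, a taurine transporter gene on that strand. The list holds kept peaks only, so it cannot show whether Grip2 RNA was absent or its calls were not kept.

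Grip1 was set beside the other long genes. Of the 567 protein-coding genes of at least 300 kb, 72 (12.7%) had at least 20 sense peaks, Grip1 among them. The 72 are not all separate, since Gm37388, Gm37013 and Gm42416 overlap on 1 strand and hold the same 38 peaks. Grip1 had 26.4 peaks per 100 kb, and the other 71 genes had a median of 6.20 and reached 17.4. The next in density were Dpp6 (17.4 per 100 kb), an auxiliary subunit of potassium channels, Shisa6 (16.5), an AMPA receptor auxiliary protein, the potassium channel gene Kcnq3 (12.7), the heparan sulfate sulfotransferase gene Hs6st3 (12.4) and the phospholipase gene Plce1 (11.5). Density was what the choice of Grip1 used in part, so this order is a description. It holds for genes of at least 300 kb. Among the 25 other protein-coding genes of any length with at least 40 sense peaks, 2 shorter ones were denser, Ntn1 (27.7 per 100 kb over 191.5 kb) and Sulf1 (27.8 over 168.9 kb), with 56.4 and 56.0% of calls kept. Sulf1, which encodes a heparan sulfate sulfatase, was chosen after its values were seen.

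The density of calls in Grip1 was high but not the highest, and the share kept was the highest of the 72 genes. Over all calls, kept or not, Grip1 had 49.2 per 100 kb between its first and last peak, which 9 of the other 71 genes exceeded (up to 54.2, in Exoc4). Of these calls 55.7% were kept, while the other genes kept a median of 21.6% and at most 45.4%, in Dpp6. The share kept and the number of peaks are not independent, since both count the kept peaks.

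**Figure D5:**
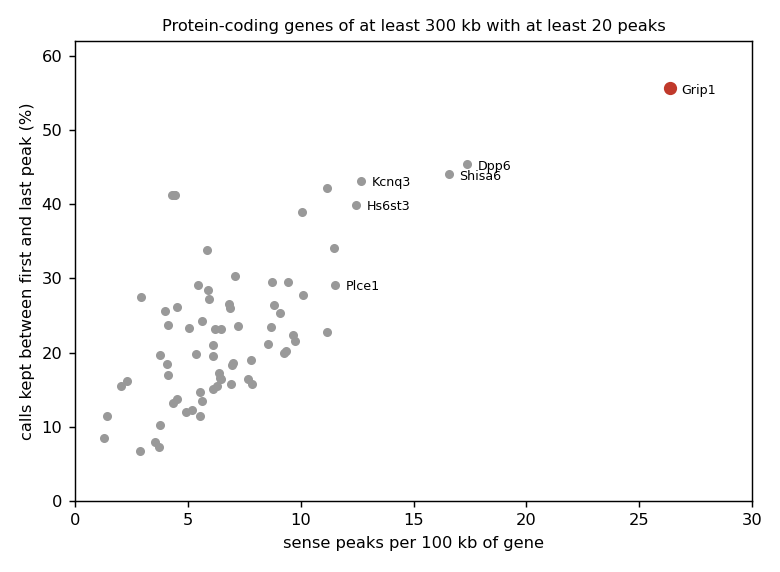
Share of calls kept between the first and last peak (vertical axis, %) against sense peaks per 100 kb of gene (horizontal axis) for the 72 protein-coding genes of at least 300 kb with at least 20 sense peaks, 1 point per gene, Grip1 in red. Grip1 lies at 26.4 peaks per 100 kb and 55.7% of calls kept, beyond Dpp6 at 17.4 and 45.4%; both axes count the kept peaks.

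In width, unevenness of gaps and strand Grip1 was within the range of the long genes. Its median width of 510 bases was below that of 52 of the 71 (range 353 to 1013), although its widest peak, at 4465 bases, was the widest in the set. The next, of 3734 bases, lay in the annotated body of Fgfr2, which spans 2961 kb. The unevenness of gaps in Grip1, as SD over mean, was 1.26 and the median of the others 1.25. The excess of its most occupied intron over that intron's share of the length, 1.18, was exceeded by 45 of the 71. Its first peak came 16.1 kb after the gene start, and the median of the others was 21.2 kb. The sense share of 97.7% was exceeded by 33 of them. Its median gap of 1705.5 bases was the shortest (the others ranged from 2261 to 27635 bases), which follows from the density.

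The genes whose peaks were spread most like those of Grip1 were Shisa6, Tenm4, Ntn1, Dpp6 and Hs6st3. Likeness was the sum of absolute differences in the share of peaks over 10 equal parts of the gene (0 for identical, 2 for no shared part), over the 25 other protein-coding genes with at least 40 sense peaks. It was 0.332 for Shisa6, 0.339 for the teneurin gene Tenm4, 0.349 for the guidance cue gene Ntn1, 0.370 for Dpp6 and 0.439 for Hs6st3. These values are close, and Shisa6, Tenm4 and Ntn1 have only 52, 72 and 53 peaks over the 10 parts. Whether their order exceeds counting error was not tested. Over these 10 parts Grip1 had 4.79, 10.8, 14.4, 15.0, 10.2, 14.4, 13.2, 3.59, 7.19 and 6.59% of its peaks.

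Lists of related genes are described by their own counts, since Grip1 was chosen for having the most peaks and a lower density than its own follows in part from that. Of 22 GRIP binding partners 13 had at least 1 sense peak (59.1%), and 6 had at least 5 (of all protein-coding genes, 26.2% had at least 1 and 4.52% at least 5). The partners are long, with a median of 99.2 kb against 17.4 kb for all protein-coding genes. Their median density was 1.39 peaks per 100 kb. That of all protein-coding genes was 0, since most had no peak, and is not a comparison at like length. Of protein-coding genes of 50 to 80 kb, 47.3% had at least 1 sense peak. The share in the partners therefore cannot be told apart from their length. Among receptors, the kainate receptor subunit gene Grik3 held 27 peaks (12.1 per 100 kb), and the AMPA receptor subunit genes Gria3 and Gria4 held 11 each, whereas Gria1 and Gria2 held 0. Among motors and membrane fusion genes, the kinesin heavy chain genes Kif5c and Kif5b held 9 and 5, and Nsf, an ATPase that takes apart SNARE complexes, held 8. Pick1, another PDZ protein that binds AMPA receptors, and the liprin genes Ppfia1, Ppfia2 and Ppfia4 held 0.

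In the Fraser complex of FRAS1 and FREM proteins, 2 of 4 genes had peaks, against 26.2% of all protein-coding genes. The 4 are long, with a median of 148.9 kb, so this share cannot be told apart from their length. Fras1 held 9 (2.19 per 100 kb) and Frem2 held 5 (3.49 per 100 kb), all intronic, and Frem1 and Frem3 held 0. The median density of the 4 was 1.10 per 100 kb.

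Of 26 other PDZ scaffold genes 22 had a sense peak (84.6%) and 11 at least 5, with a median length of 209.4 kb and a median density of 1.74 per 100 kb. Of all protein-coding genes, with a median length of 17.4 kb, 26.2% had at least 1 sense peak and 4.52% at least 5. Of those of 50 to 80 kb, 47.3% had at least 1. The share in the scaffold genes therefore cannot be told apart from their length. Magi2 held 43 peaks over 1478 kb (2.91 per 100 kb), the ubiquitin ligase gene Pdzrn3 22 (9.64), the cell polarity gene Patj 18 (5.56), Magi1 and Pdzd2 15 each (2.47 and 3.95) and the tight junction gene Tjp1 10 (4.32). Pard3, Pard3b and Pdzrn4 held 6 each, and Magi3 and the postsynaptic scaffold gene Shank1 held 5 each. Dlg3, Dlg5, Lnx1 and Tjp3 held 0.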

How the data were processed

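The deposited file is 1 peak list of 6 columns without a header. Its starts and ends are positions in mm10, a build named with STAR, Subread and featureCounts in the submitters' processing notes. All peaks carry a deposited score of 500, which was not used. How peaks were called, at which threshold and on which libraries is not given in the sources used here. Starts were taken as counted from 0, and coordinates are printed counted from 1.

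Peaks were placed by midpoint in GENCODE M21 genes (GRCm38) on the same strand. Introns are those of the protein-coding transcript with the longest span and, among ties, most exons. Long genes are protein-coding, of at least 300 kb and with at least 20 sense peaks. Calls are numbers in the peak names. Exon sequence came from GENCODE M21 transcripts and sequence at starts from RefSeq. Intervals are 95% Wilson intervals. Counting was tested on simulated data. Python 3.11.15, pandas 2.3.3 and scipy 1.17.1 were used. No test between groups was possible, so the planned edgeR test was not run.

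Members and lists were chosen with earlier results of these data known. Named genes are the members, their neighbours, list genes with at least 5 peaks and some examples with fewer, and the genes nearest in density and in profile. Alternatives were another rule of overlap, wider peaks only, joined peaks, other introns or exons, and starts counted from 1.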

Additional observations from a re-analysis of the deposited data

How the results depend on the processing

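Of 19 alternative settings over 8 results, 8 left the value within its counting interval or, for counts, within 1.5 times. The Grip1 count was 167 under any overlap, with whole peaks only and with starts counted from 1. When peaks narrower than the list median (596 bases) were left out, Grip1 held 74 sense and 1 antisense peaks, intron 1 held 89.2% of the sense peaks, and the median gap was 3875 bases. With peaks less than 1 kb apart joined, Grip1 held 111 peaks with a median width of 1043 bases and a median gap of 2864, and 81.1% were in intron 1. Measured between midpoints the median distance was 2401.5 bases. In the introns of Grip1-208, 1 of 3 transcripts with 25 exons, which begins at 365.7 kb, the most occupied intron held 15.6% of all 167 Grip1 peaks. Since 112 of these lie before that start and outside the transcript, this is not the intron's share of the peaks that Grip1-208 covers. With any overlap, 7 peaks counted as exonic. With 10 kb added at both ends, Grip2 held 1 sense peak. Without the first and last of 10 equal parts of Grip1, 59.2% of calls were kept. No paired analysis was possible because the list holds no value per library, and for the same reason the settings that leave out a library or add a replicate block were not run. Library depth is unknown.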
